A study of Mus musculus with 8 samples.

Results

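Respiratory complex I, the NADH:ubiquinone oxidoreductase of the inner mitochondrial membrane, was followed through the 44 genes whose symbols start with Nduf, out of 18193 genes with a probe set of their own on the arrays. A gene was a member when the array's annotation gave a probe set that single Nduf symbol, and of several probe sets the brightest on average over the 8 arrays was taken. Of the 44 genes, 42 had a signal of at least 50 in 2 or more of the arrays and were tested among 8886 genes. The exceptions were Ndufa4l2, which read between 1.22 and 3.98 on the 8 arrays, and Ndufb4, whose own probe set read between 6.10 and 12.0. The tested genes were 33 subunits of the enzyme, 8 assembly factors and Ndufa4, which carries an Nduf name but is a subunit of cytochrome c oxidase.

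The cells were bone marrow progenitors of male mice of a background given as mainly C576BL/6. Common myeloid progenitors (CMP) give rise to granulocyte-monocyte progenitors (GMP) and to the megakaryocyte and erythroid branch, and both kinds were isolated on a flow sorter. The control mice were G0 TERTER/+, so that they carry 1 copy of the modified telomerase reverse transcriptase allele, and the G4/G5 TERTER/ER mice, of late generations, carry the allele on both chromosomes. Each of the 4 groups, G0 CMP, G4/G5 CMP, G0 GMP and G4/G5 GMP, had 2 arrays from 2 pools of 4 mice, always given here with pool 1 first, matched for age and sex between the genotypes. Each value is therefore an average over mice, the generations G4 and G5 were not kept apart, and the spread between mice within a pool was not measured.

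Complex I takes electrons from NADH through a flavin and a chain of iron-sulphur clusters to ubiquinone and pumps protons across the inner membrane. Its core subunits do the catalysis, and some of them are encoded by mitochondrial DNA. Accessory subunits surround and stabilise the core, and assembly factors help to build the enzyme and are not part of it. In blood formation, oxidative metabolism is known to increase as stem cells give way to dividing progenitors.

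The median signal of all probe sets was 17.4 to 18.5 on the CMP arrays and 14.3 to 15.7 on the GMP arrays, and 34.2% to 35.2% and 31.6% to 32.7% of probe sets reached 50. Tert itself stayed under 50 on all arrays, at most 14.9, and could not check the genotype labels, since the modified allele still makes a transcript. The progenitor genes Kit, Cd34, Myb and Gata2 summed to between 7016 and 12138 on the arrays, and the 5 lymphoid markers measured were under 50 on all of them. The markers expected to be higher in GMP (Mpo, Elane, Prtn3, Ctsg, Fcgr3 and Ms4a3) summed to 6278 and 12956 (G0) and 24550 and 20651 (G4/G5) in the CMP pools, and to 30527 to 35522 on the 4 GMP arrays. The megakaryocyte-erythroid markers summed to 2255 to 4677 in CMP and 617 to 1008 in GMP. The 10 maturing neutrophil markers measured summed to 56526 in pool 1 of G4/G5 CMP, against 214 in its pool 2 and 294 and 290 in G0 CMP. In GMP the same sum was 1464 and 3346 for the G0 pools and 29651 and 32271 for the G4/G5 pools. Pool 1 of G4/G5 CMP thus stood apart from the other CMP arrays by its neutrophil markers. For comparisons that use it, a median or a count of calls over all tested Nduf genes is also given without it. Values of single genes and of the subunits as a group, and counts of genes without overlap, are given with it only.

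The promoters of Nduf genes were searched for motifs of factors known for nuclear genes of the respiratory chain. RefSeq gave a promoter, 250 bases before to 50 bases after the start, for 39 of the 44 genes (41 entries, build GRCm38.p6). The motif of NRF1, a regulator of nuclear genes for mitochondrial proteins, was searched as GCGCANGCG on both strands. It was in 9 of the 41 entries (22.0%) and in 6.25% of all 32851 entries. Those 9 entries belonged to 8 of the 39 genes, since 2 overlapping entries of Ndufa5 held the same run. The YY1 motif AAGATGGCG was in 12.2% of the Nduf entries and 1.40% of all, the ETS motif CCGGAAG in 14.6% and 8.86%, and the ERR motif AAGGTCA in 7.32% and 4.72%. The GC box GGGCGG was in 53.7% and 35.7%, and TATAAA in 12.2% and 13.6%. By gene, the GC box was in 21 of 39 and TATAAA in 4 of 39. In the Nduf entries 1 pair of different motifs overlapped, the ETS and GC box runs of Ndufs3. A match is a run of letters and not a shown binding site. The 5 stretches printed here, each the 100 bases before the start on the gene's strand, show where such runs lie in genes that were higher in GMP than in CMP. The capitals mark the NRF1 match in the first 3, with 2 matches in Ndufa8, and the ETS match in the last 2. They come from chr4:123718187-123718286 (minus strand) for Ndufs5, chr2:36049339-36049438 (minus) for Ndufa8, chr6:24527691-24527790 (minus) for Ndufa5, chr8:83566658-83566757 (plus) for Ndufb7 and chr2:90904722-90904821 (minus) for Ndufs3.
Ndufs5: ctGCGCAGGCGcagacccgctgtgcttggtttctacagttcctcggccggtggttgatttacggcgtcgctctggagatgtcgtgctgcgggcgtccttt
Ndufa8: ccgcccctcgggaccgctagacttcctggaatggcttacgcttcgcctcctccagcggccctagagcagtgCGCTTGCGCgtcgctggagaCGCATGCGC
Ndufa5: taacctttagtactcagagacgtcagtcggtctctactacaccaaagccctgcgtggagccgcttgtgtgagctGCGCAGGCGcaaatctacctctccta
Ndufb7: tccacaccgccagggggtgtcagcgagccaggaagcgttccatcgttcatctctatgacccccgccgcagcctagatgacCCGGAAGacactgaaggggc
Ndufs3: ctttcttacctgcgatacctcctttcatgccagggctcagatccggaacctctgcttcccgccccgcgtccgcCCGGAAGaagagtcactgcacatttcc

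The runs were counted against the difference between cell types that is described next. Among the Nduf genes with a promoter entry and a test, the NRF1 run was in 4 of the 20 that were higher in GMP of G0 mice and in 3 of the 18 that did not pass. The YY1 run was in 2 of 20 and 3 of 18, the ETS run in 3 of 20 and 3 of 18, and the GC box in 10 of 20 and 10 of 18. The ERR run was in 2 of 20 (Ndufb2 and Ndufs5) and in 0 of 18.

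In normal mice many complex I genes were higher in GMP than in CMP, and none was called lower. Of the 42 genes, 21 were higher and 0 lower at an adjusted p of 0.05 (limma, Benjamini-Hochberg over the 8886 genes), where 10.6% of all genes were called higher and 10.2% lower. The median difference was 0.52 on the log2 scale of signal plus 10, with 40 genes above 0 and 2 below, against a median of -0.02 over all genes. In 38 of the 42 genes both GMP arrays were above both CMP arrays, against 32.2% of all genes. Scaling every array to the same median over the 8886 tested genes also gave 21 calls, with a median difference of 0.55. That scaling used the tested genes only, whose median difference was -0.02 before it, so it could move the values only slightly. Quantile normalization, which used all probe sets other than controls, gave 10 calls and a median difference of 0.36. The part of the scaling in the difference was not tested. Arrays measure the RNA of a bulk sample, so that a changed share of cells of a type and a changed amount of RNA per cell cannot be told apart.

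**Figure D1:**
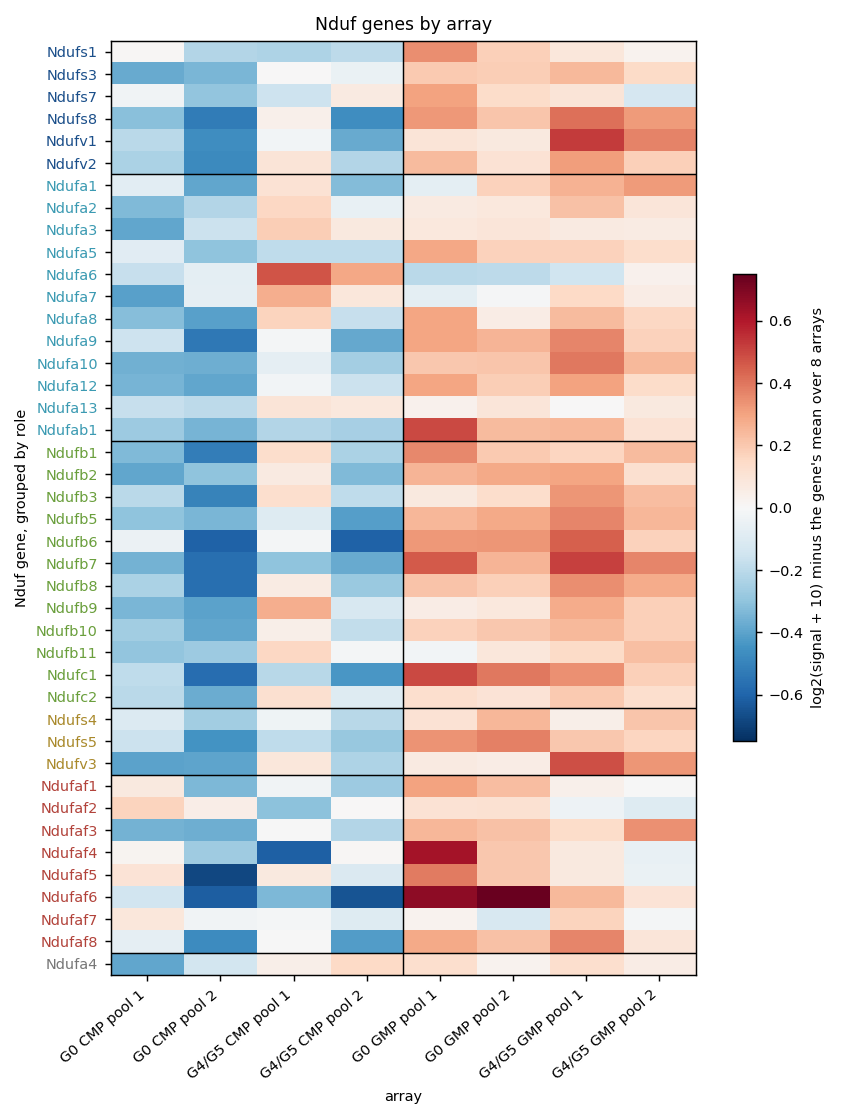
Heat map of the 42 tested Nduf genes (rows, grouped and coloured by role) on the 8 arrays (columns, CMP on the left of the line and GMP on the right); colour is log2(signal + 10) minus the gene's own mean over the arrays. The CMP columns are mostly below the gene means and the GMP columns above, with pool 1 of G4/G5 CMP the highest of the CMP columns.

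On each array, the median of the 42 genes relative to their own means summarises the picture. On the log2 scale it was -0.22 and -0.37 (G0) and -0.00 and -0.20 (G4/G5) for the CMP arrays, and 0.24 and 0.18 (G0) and 0.24 and 0.15 (G4/G5) for the GMP arrays. Thus 6 and 1 genes were above their own mean on the G0 CMP arrays, 21 and 8 on the G4/G5 CMP arrays, and 36 to 40 on the GMP arrays. Pools of one group differed as well: pool 1 was higher than pool 2 for 33 (G0) and 37 (G4/G5) of the 42 genes among CMP and for 24 (G0) and 35 (G4/G5) among GMP. The median size of that pool difference was 0.21, 0.23, 0.06 and 0.12 in the same order, against 0.25, 0.27, 0.15 and 0.13 over all genes.

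The core subunits that hold the electron path came out higher in GMP of G0 mice for Ndufs3, Ndufs8 and Ndufv2, 3 of the 6 measured. Ndufv1 carries the NADH site and the flavin. Its signal was 794 and 661 (G0) and 903 and 701 (G4/G5) in the CMP pools, and 978 and 964 (G0) and 1320 and 1187 (G4/G5) in the GMP pools. All 4 GMP arrays of Ndufv1 were above all 4 CMP arrays, and the highest were those of G4/G5 GMP. Its GMP minus CMP difference was 0.42 ± 0.16 (SE) in G0, which did not pass (adjusted p = 0.0922, limma), and 0.65 ± 0.16 in G4/G5, which did (adjusted p = 0.0388, limma).

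Ndufv2, an iron-sulphur subunit next to Ndufv1 in the NADH-oxidising arm, read 1547 and 1312 (G0) and 1955 and 1570 (G4/G5) in the CMP pools, and 2156 and 1972 (G0) and 2278 and 2071 (G4/G5) in the GMP pools. Again every GMP array exceeded every CMP array, and both G4/G5 CMP arrays lay above both G0 CMP arrays. The difference between cell types was 0.53 ± 0.15 in G0 (adjusted p = 0.0372, limma) and 0.31 ± 0.15 in G4/G5 (adjusted p = 0.201, limma). Ndufs1, the large iron-sulphur subunit of the same arm, read 578 and 493 (G0) and 488 and 500 (G4/G5) in the CMP pools, and 735 and 652 (G0) and 611 and 587 (G4/G5) in the GMP pools. It was the only core subunit with a lower mean in G4/G5 than in G0 CMP (-0.11 ± 0.13), and neither cell-type difference passed (adjusted p = 0.0834 and 0.215, limma).

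In the arm that leads to ubiquinone, Ndufs3, which enters the enzyme early in assembly, read 688 and 704 (G0) and 900 and 867 (G4/G5) in the CMP pools, and 1030 and 1022 (G0) and 1066 and 991 (G4/G5) in the GMP pools. The 4 groups of Ndufs3 were ordered with G0 CMP lowest and G4/G5 CMP between it and GMP, while the GMP groups overlapped. Its GMP minus CMP difference was 0.55 ± 0.11 in G0 (adjusted p = 0.0140, limma) and 0.22 ± 0.11 in G4/G5 (adjusted p = 0.239, limma). Its promoter stretch with the ETS run is among those printed above.

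Ndufs8, which holds the iron-sulphur clusters near ubiquinone, read 1652 and 1424 (G0) and 2115 and 1486 (G4/G5) in the CMP pools, and 2580 and 2378 (G0) and 2747 and 2567 (G4/G5) in the GMP pools. The GMP arrays lay above all CMP arrays, and pool 1 of G4/G5 CMP was the highest of the CMP arrays. The G0 difference of Ndufs8 was 0.69 ± 0.17 (adjusted p = 0.0262, limma), and that in G4/G5 was 0.58 ± 0.17 (adjusted p = 0.0649, limma). Its probe set is of the _x_at kind, which can cross-match, and without _x_at and _s_at sets the G0 difference was 0.40 ± 0.15 and did not pass (adjusted p = 0.0867, limma). Ndufs7, which carries the last cluster of the chain, read 1139 and 941 (G0) and 1037 and 1216 (G4/G5) in the CMP pools, and 1433 and 1275 (G0) and 1238 and 1062 (G4/G5) in the GMP pools. Its GMP arrays lay above the CMP arrays in G0, at 0.38 ± 0.15 (adjusted p = 0.108, limma), and overlapped with them in G4/G5. The change of its GMP minus CMP difference from G0 to G4/G5 did not pass (-0.35 ± 0.22, adjusted p = 0.994, limma).

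**Figure D2:**
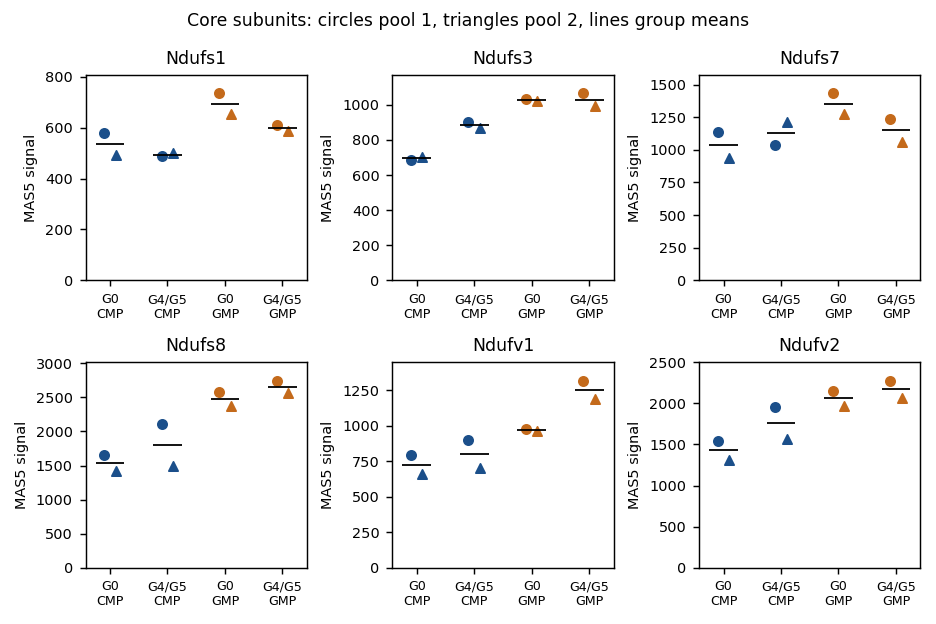
MAS5 signal (linear vertical axis from 0) of the 6 core subunits in the 4 groups; circles are pool 1, triangles pool 2 and lines group means of 2 arrays. In Ndufv1, Ndufv2, Ndufs1, Ndufs3 and Ndufs8 all GMP arrays lie above all CMP arrays, and in Ndufs7 they overlap.

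The accessory subunits of the membrane arm, named Ndufb and Ndufc, gave 8 calls of 12 in G0, all higher in GMP, with a median of 0.60 and all 12 above 0. Ndufb7, a subunit on the intermembrane-space side, read 1263 and 1087 (G0) and 1307 and 1242 (G4/G5) in the CMP pools, and 2221 and 1932 (G0) and 2309 and 2085 (G4/G5) in the GMP pools. Its GMP arrays were well clear of its CMP arrays in both genotypes, 1.77-fold on average in G0 (0.82 ± 0.13, adjusted p = 0.00697, limma) and 1.72-fold in G4/G5 (0.78 ± 0.13, adjusted p = 0.0123, limma). Between genotypes it differed by 0.12 ± 0.13 in CMP and 0.08 ± 0.13 in GMP (adjusted p = 0.732 and 0.875, limma). A dimmer probe set of Ndufb7 read 623 and 664 (G0) and 896 and 894 (G4/G5) in the CMP pools, a genotype difference of 0.47. With that probe set the GMP minus CMP difference was 0.78 in G0 and 0.44 in G4/G5.

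Ndufc1, a small subunit of the membrane arm, read 1630 and 1252 (G0) and 1613 and 1376 (G4/G5) in the CMP pools, and 2626 and 2450 (G0) and 2363 and 2113 (G4/G5) in the GMP pools. It passed in both genotypes, at 0.82 ± 0.15 in G0 (adjusted p = 0.0109, limma) and 0.58 ± 0.15 in G4/G5 (adjusted p = 0.0491, limma), where the call was lost in 11 of 21 alternatives. Ndufb1, another small membrane-arm subunit, read 115 and 99.4 (G0) and 162 and 123 (G4/G5) in the CMP pools, and 191 and 169 (G0) and 166 and 175 (G4/G5) in the GMP pools. The G4/G5 CMP arrays of Ndufb1 were above those of G0, and its difference between cell types passed in G0 alone (0.70 ± 0.18, adjusted p = 0.0280, against 0.25 ± 0.18, adjusted p = 0.367, limma). The change of that difference from G0 to G4/G5 did not pass (-0.45 ± 0.25, adjusted p = 0.994, limma). Ndufb5 read 1468 and 1427 (G0) and 1695 and 1360 (G4/G5) in the CMP pools, and 2162 and 2215 (G0) and 2346 and 2161 (G4/G5) in the GMP pools. Like Ndufb7 it passed in both genotypes, at 0.59 ± 0.13 in G0 (adjusted p = 0.0182, limma) and 0.57 ± 0.13 in G4/G5 (adjusted p = 0.0336, limma). Ndufb2, Ndufb8, Ndufb10 and Ndufc2 were also called in G0, at 0.40 to 0.61, and Ndufb3, Ndufb6, Ndufb9 and Ndufb11 were not, at 0.32 to 0.65.

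Among the Ndufa subunits, which lie in both arms, 6 of 12 were higher in GMP of G0 mice, with a median of 0.39. Ndufa9, a subunit near the ubiquinone site, read 895 and 686 (G0) and 987 and 762 (G4/G5) in the CMP pools, and 1225 and 1190 (G0) and 1291 and 1125 (G4/G5) in the GMP pools. Its groups of different cell types did not overlap, and the difference was 0.62 ± 0.17 in G0 (adjusted p = 0.0395, limma) and 0.47 ± 0.17 in G4/G5 (adjusted p = 0.118, limma). Ndufab1, the mitochondrial acyl carrier protein, which also serves fatty acid synthesis, read 1120 and 1058 (G0) and 1161 and 1138 (G4/G5) in the CMP pools, and 1913 and 1593 (G0) and 1607 and 1458 (G4/G5) in the GMP pools. Its difference of 0.68 ± 0.13 in G0 (adjusted p = 0.0114, limma) comes from a probe set whose name ends in _s_at, made to match more than 1 transcript. A dimmer probe set of Ndufab1 gave 0.13 (adjusted p = 0.701, limma), so that the call rests on the choice of probe set.

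Ndufa10 read 1109 and 1102 (G0) and 1356 and 1191 (G4/G5) in the CMP pools, and 1640 and 1645 (G0) and 1874 and 1690 (G4/G5) in the GMP pools. This subunit of the membrane arm passed in both genotypes, at 0.57 ± 0.12 in G0 (adjusted p = 0.0153, limma) and 0.48 ± 0.12 in G4/G5 (adjusted p = 0.0396, limma). Ndufa5, Ndufa8 and Ndufa12 were called in G0 at 0.43, 0.54 and 0.61, with the NRF1 run of the first 2 printed above. The Ndufa12 value comes from an _x_at probe set, and its other probe sets past the filter gave 0.30 and 0.33. Ndufa6 went the other way: it read 1167 and 1255 (G0) and 1834 and 1613 (G4/G5) in the CMP pools, and 1144 and 1151 (G0) and 1189 and 1349 (G4/G5) in the GMP pools. It was the only subunit below 0 in G0 (-0.08 ± 0.12), and in G4/G5 its GMP arrays were below its CMP arrays, with a difference of -0.44 ± 0.12 that did not pass (adjusted p = 0.0590, limma).

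Of the 3 accessory subunits named Ndufs and Ndufv, 2 were called in G0. Ndufs5 read 360 and 293 (G0) and 352 and 330 (G4/G5) in the CMP pools, and 513 and 527 (G0) and 465 and 453 (G4/G5) in the GMP pools. The cell types of Ndufs5, whose promoter stretch opens with an NRF1 run, did not overlap, with a difference of 0.66 ± 0.14 in G0 (adjusted p = 0.0159, limma) and 0.42 ± 0.14 in G4/G5 (adjusted p = 0.0917, limma). Ndufv3, a small subunit of the NADH-oxidising arm, was called in G0 at 0.46 ± 0.14 (adjusted p = 0.0437, limma). Ndufs4, a subunit whose loss causes mitochondrial disease, was at 0.36 ± 0.14 (adjusted p = 0.0996, limma).

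The assembly factors gave 2 calls of 8 in G0. Ndufaf6 read 171 and 120 (G0) and 148 and 118 (G4/G5) in the CMP pools, and 308 and 324 (G0) and 227 and 205 (G4/G5) in the GMP pools. It had the largest difference of all 42 genes, 2.17-fold on average in G0 (1.09 ± 0.20, adjusted p = 0.00957, limma), and 0.67 ± 0.20 in G4/G5 (adjusted p = 0.0642, limma). Both G4/G5 GMP arrays of Ndufaf6 were below both G0 GMP arrays and above all CMP arrays. Ndufaf3, which acts early in assembly with Ndufaf4, read 171 and 170 (G0) and 221 and 189 (G4/G5) in the CMP pools, and 266 and 260 (G0) and 245 and 285 (G4/G5) in the GMP pools (0.60 ± 0.15 in G0, adjusted p = 0.0261, limma). Ndufaf4 itself was at 0.54 ± 0.23 and Ndufaf5 at 0.59 ± 0.26, with wider errors, and neither passed. Ndufaf1, a factor of the membrane arm, was at 0.40 ± 0.17 and Ndufaf8 at 0.53 ± 0.19, and both missed the threshold. Ndufaf2, at 0.00 ± 0.15, and Ndufaf7, at -0.08 ± 0.15, overlapped between the cell types in G0. Ndufa4, the cytochrome c oxidase subunit, read 2475 and 2945 (G0) and 3345 and 3592 (G4/G5) in the CMP pools, and 3532 and 3296 (G0) and 3540 and 3370 (G4/G5) in the GMP pools. Only its G0 CMP arrays stood below the rest, and it passed in no comparison.

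The number of calls depended on single arrays, because each group has 2. Without pool 1 of G0 GMP, 0 of the 42 genes passed (26 of 8886 genes were called higher), without pool 2 of G0 GMP 2 passed, and without pool 2 of G0 CMP or either G4/G5 GMP array 9 passed, while the median stayed between 0.41 and 0.57 in all 8 such fits. Quantile normalization gave 10 calls with a median of 0.36, and testing all 18193 genes gave 12. Of the 8 largest calls, that of Ndufb7 was lost in 1 of 21 alternatives and those of Ndufs8 and Ndufa9 in 8 of 21.

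**Figure D3:**
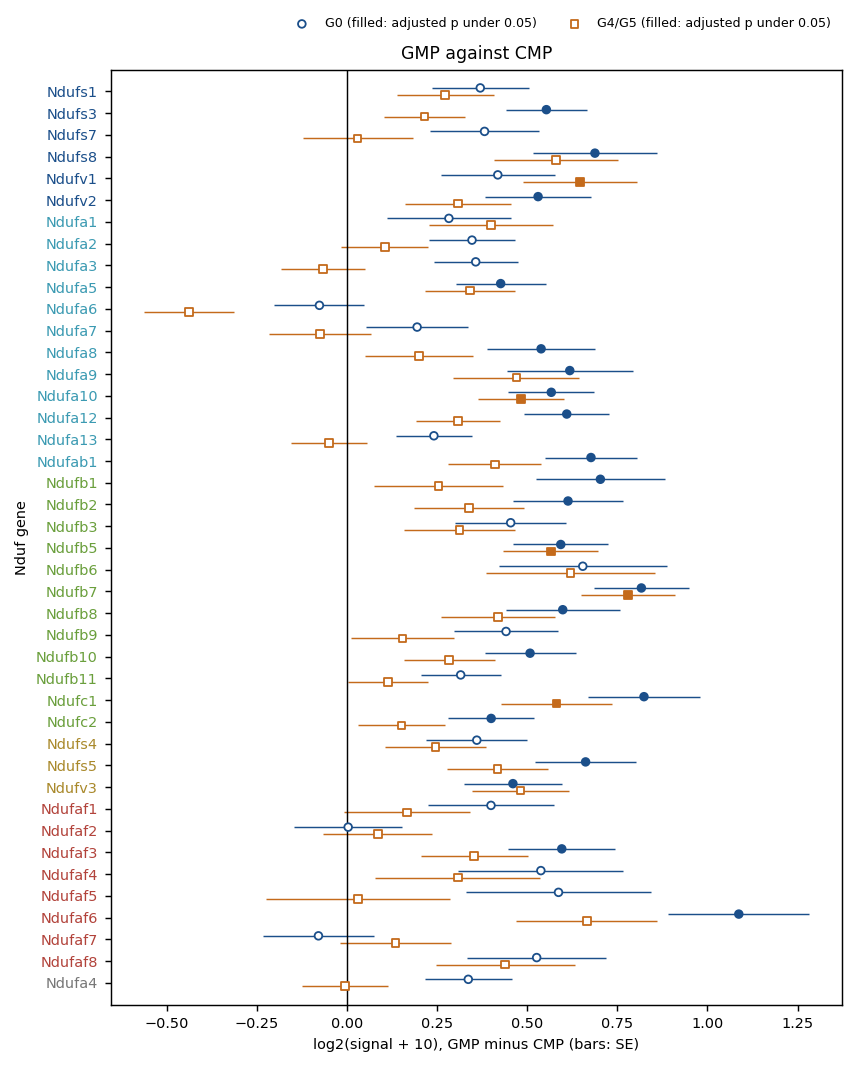
GMP minus CMP difference (horizontal axis, log2(signal + 10), bars are SE) of each of the 42 Nduf genes (vertical axis, coloured by role) in G0 (circles) and G4/G5 (squares), filled where adjusted p was under 0.05. In G0, 21 circles are filled, all to the right of 0; in G4/G5, 5 squares are.

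In G4/G5 mice the difference between the cell types had the same direction for most genes and fewer calls. Ndufa10, Ndufb5, Ndufb7, Ndufc1 and Ndufv1 were higher in GMP, 5 of 42 genes, and 0 were lower, where 4.19% of all genes were called higher and 6.30% lower. The first 4 were also called in G0. The median was 0.31, with 37 genes above 0 and 5 below (all genes -0.04), and in 29 genes both GMP arrays exceeded both CMP arrays, against 27.7% of all genes. Over both genotypes, all 4 GMP arrays were above all 4 CMP arrays in 23 of the 42 genes, against 14.8% of all genes. The 5 calls became 13 with the paired pools as a block within each cell type and 9 with a block shared by both, 13 without pool 1 of G4/G5 CMP, 1 without its pool 2, 1 without either G0 GMP array and 0 without either G4/G5 GMP array. Under quantile normalization 1 gene was higher and 1 lower. Over all 21 alternatives the G4/G5 call was lost in 2 for Ndufb7, in 9 for Ndufv1 and Ndufa10, in 10 for Ndufb5 and in 11 for Ndufc1.

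The GMP minus CMP difference was lower in G4/G5 than in G0 for 37 of 42 genes, with a median of -0.23 between them, and for 54.9% of all genes, with a median of -0.03. The test of that difference passed for 0 of the 42 genes and 0 of all 8886 (0% called, limma), and at an unadjusted p of 0.05 for 1 of 42 (2 with the paired pools as a block within cell type) and for 3.98% of all genes. The gene with the smallest p was Ndufa3, at -0.42 ± 0.17, followed by Ndufs3 at -0.34 ± 0.16 and Ndufa6 at -0.36 ± 0.18 (adjusted p = 0.994 for each, limma). Ndufa3 read 1688 and 1976 (G0) and 2511 and 2331 (G4/G5) in the CMP pools, and 2332 and 2353 (G0) and 2314 and 2308 (G4/G5) in the GMP pools, so that its G0 CMP arrays alone were low. These values of Ndufa3 come from an _x_at probe set. Without _x_at and _s_at sets the change of its GMP minus CMP difference from G0 to G4/G5 was -0.22 ± 0.20. The median over the 42 genes was -0.11 without pool 1 of G4/G5 CMP, -0.10 without pool 2 of G0 CMP and -0.33 without pool 2 of G4/G5 CMP. For the 17 genes called in G0 alone, the GMP minus CMP difference is therefore not shown to differ between genotypes.

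The genotypes were then compared within each cell type, with the same arrays as above. In CMP, G4/G5 against G0, 36 of the 42 genes were above 0 and 6 below, with a median of 0.21 (all genes 0.04), and 0 passed, where 0.0113% of all genes were called. At an unadjusted p of 0.05, 13 of 42 genes passed, against 13.4% of all genes (limma). In 20 genes both G4/G5 arrays were above both G0 arrays, and in 1 below, against 21.7% and 14.9% of all genes. Quantile normalization moved the split from 36 and 6 to 31 above 0 and 11 below.

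Among the 33 subunits the CMP difference was above 0 for 32, against 55.6% of all genes, with a median of 0.25. The exception was Ndufs1. The smallest p belonged to Ndufa6 (0.50 ± 0.12, 1.42-fold, adjusted p = 0.250, limma), whose 4 CMP arrays, given above, did not overlap between genotypes. Ndufa3 followed at 0.40 ± 0.12 (adjusted p = 0.277, limma). Ndufb11, a membrane-arm subunit encoded on the X chromosome, was at 0.35 ± 0.11 (adjusted p = 0.308, limma) and read 2287 and 2320 (G0) and 3121 and 2775 (G4/G5) in the CMP pools, and 2769 and 2973 (G0) and 3096 and 3277 (G4/G5) in the GMP pools. Its G0 CMP arrays were below all other arrays. The 8 assembly factors were split: 3 were above 0 and 5 below, with a median of -0.05 and a range of -0.26 for Ndufaf2 to 0.27 for Ndufaf5.

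Marker sums also differed between the CMP arrays. In G0 CMP, pool 2 had the higher GMP marker sum and the lower Nduf median (-0.37 against -0.22 for pool 1). In G4/G5 CMP, pool 1 had the higher of both (-0.00 against -0.20 for pool 2). The 2 G4/G5 CMP arrays had higher GMP marker sums (24550 and 20651) than the G0 CMP arrays (6278 and 12956). Of the 6 markers, 4 were above both G0 CMP arrays on both. In pool 2 Fcgr3 (72.2, against 38.7 and 83.9 in G0 CMP) and Ms4a3 (445, against 538 and 300) were not. Pool 1 of G4/G5 CMP also held the high neutrophil sum. Without that pool the median CMP difference was 0.13 with 28 genes above 0, and without pool 2 of G4/G5 CMP it was 0.33 with 38 above 0. Without pool 2 of G0 CMP it was 0.11 with 26 above 0. The part of the GMP and neutrophil markers in the difference was not tested.

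In GMP the complex I genes lay on both sides of 0 between genotypes. The median difference between G4/G5 and G0 was 0.00, with 22 genes above 0 and 20 below, and 0 passed, where 0% of all genes were called (limma), and at an unadjusted p of 0.05 3 of 42 genes and 7.87% of all genes passed. The groups did not overlap in 12 genes that were higher and 11 that were lower in G4/G5, against 28.8% and 26.6% of all genes. The neutrophil markers were high on both G4/G5 GMP arrays (29651 and 32271, against 1464 and 3346), and their part in these values was not tested.

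The smallest p values in GMP went in both directions. Ndufaf6 was lower in G4/G5 (-0.53 ± 0.20, adjusted p = 0.595, limma), while Ndufv1 (0.36 ± 0.16, adjusted p = 0.629, limma) and Ndufv3 (0.35 ± 0.14, adjusted p = 0.613, limma) were above 0, and none passed. Ndufv3 read 930 and 935 (G0) and 1306 and 1050 (G4/G5) in the CMP pools, and 1292 and 1283 (G0) and 1729 and 1555 (G4/G5) in the GMP pools, with G4/G5 above G0 in both cell types. In a fit of the GMP arrays alone Ndufaf6 passed (adjusted p = 0.0388, limma), 1 of the 42 genes where 358 of all 8886 passed. The assembly factors had a median of -0.21, with 6 of 8 below 0, against 0.03 for the 33 subunits. They were not alone: 25 genes for mitochondrial content and biogenesis had a median of -0.14, with 19 below 0. The 13 complex I factors with other names had a median of -0.09, with 8 below 0, and 67 genes of complexes II to V one of 0.01. In the GMP pools Ndufaf4 gave 780 and 581 for G0 against 528 and 483 for G4/G5, Ndufaf5 gave 140 and 121 against 110 and 100, and Ndufaf1 gave 284 and 270 against 235 and 228. In each of these 3 factors both G4/G5 GMP arrays were below both G0 GMP arrays, by values of -0.41 ± 0.23, -0.28 ± 0.26 and -0.25 ± 0.17, and the adjusted p lay between 0.660 and 0.778 (limma). With Ndufaf6 and Ndufaf2 (-0.18 ± 0.15) this held for 5 of the 8 factors, against 26.6% of all genes. Ndufaf3 (0.01 ± 0.15), Ndufaf7 (0.13 ± 0.15) and Ndufaf8 (-0.03 ± 0.19) overlapped between the genotypes in GMP.

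**Figure D4:**
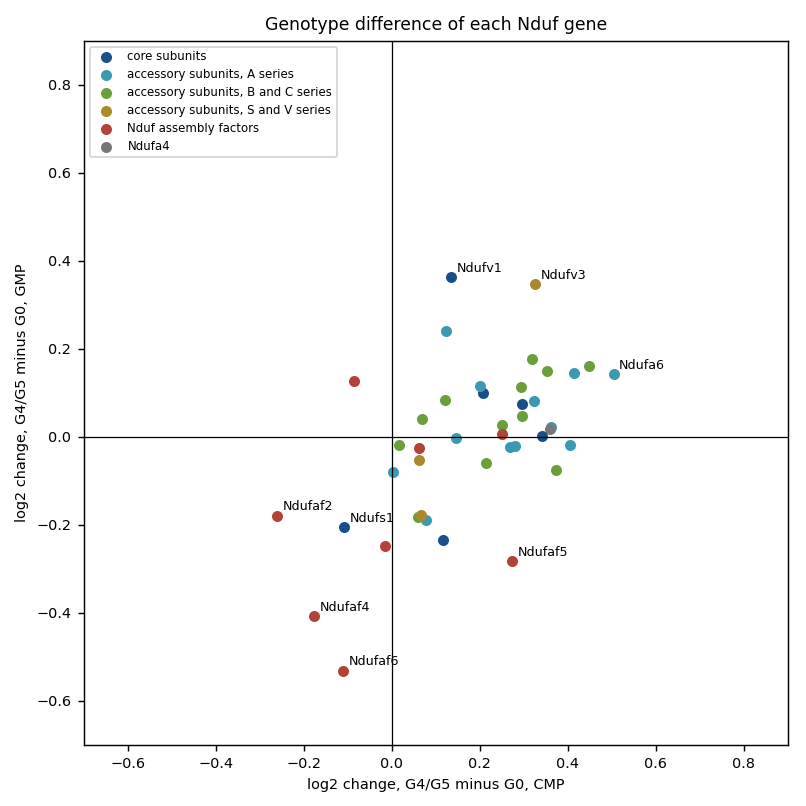
Log2 difference between G4/G5 and G0 in CMP (horizontal axis) and in GMP (vertical axis) for each of the 42 Nduf genes, coloured by role; each value is a difference of means of 2 arrays against 2. The subunits lie to the right of 0 except Ndufs1 and on both sides of 0 vertically, and 6 of the 8 assembly factors lie below 0 in GMP.

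Averaged over both cell types, the genotype difference had a median of 0.13 (30 genes above 0, 12 below) and 0 of 42 genes passed, where 0.0338% of all genes were called (0.0113% higher and 0.0225% lower, limma), while 8 of 42 (15 with the paired pools as a block within cell type) and 17.8% of all genes passed at an unadjusted p of 0.05. Ndufv3, at 0.34 (adjusted p = 0.193, limma), Ndufa6, at 0.32 (adjusted p = 0.187, limma), and Ndufb11, at 0.25 (adjusted p = 0.206, limma), came nearest. Without pool 2 of G4/G5 CMP, which leaves the pool with the high neutrophil sum, 3 of the 42 genes passed (431 of all 8886 were called higher), with Ndufv3 at an adjusted p of 0.0279 and Ndufa6 at 0.0470 (limma) among them. Without pool 1, 0 of the 42 passed (12 of all 8886 were called higher) and the median was 0.07.

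Genes with related roles moved in part as the Nduf genes did. Of 13 complex I factors that carry other names, 3 were higher in GMP of G0 mice: Chchd4, an import factor of the intermembrane space, and the assembly factors Ecsit and Tmem126a. Chchd4 was called in G4/G5 as well. Of 67 genes of complexes II to V, 30 were higher in G0 (median 0.36) and 7 in G4/G5 (median 0.20), and in CMP their genotype difference had a median of 0.23 with 50 above 0 and 17 below. By complex, the G0 calls were 2 of 8 for complex II, 8 of 15 for complex III with cytochrome c, 10 of 26 for complex IV and 10 of 18 for complex V, the ATP synthase. Of 25 genes for mitochondrial content and biogenesis, 6 were higher in GMP of G0 and 2 in G4/G5. All these counts stand against the 10.6% (G0) and 4.19% (G4/G5) of all genes called higher. In CMP the genotype difference of the mitochondrial content genes had a median of -0.01, with 12 above 0 and 13 below, and that of the complex I factors with other names 0.04, with 9 above and 4 below.

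One core subunit encoded by mitochondrial DNA had a probe set, ND5, a proton-pumping subunit of the membrane arm. It read 2404 and 4601 (G0) and 2777 and 5158 (G4/G5) in the CMP pools, and 2360 and 2461 (G0) and 2245 and 2430 (G4/G5) in the GMP pools. Unlike most nuclear members, ND5 was not higher in GMP, at -0.46 in G0 and -0.69 in G4/G5, and it passed in neither. In CMP its pool 2 arrays were both above its pool 1 arrays.

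**Figure D5:**
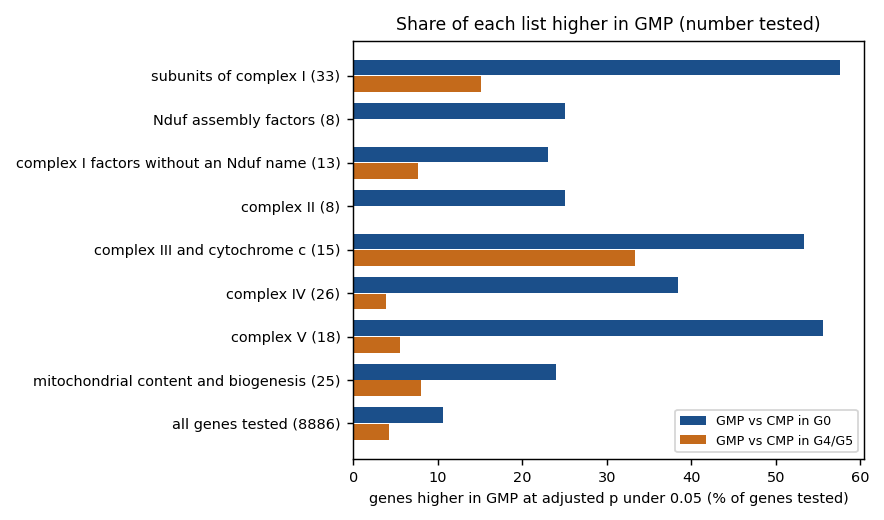
Bars give the percentage of tested genes in each list that were higher in GMP at an adjusted p under 0.05, in G0 (blue) and G4/G5 (orange), with the number of genes tested in brackets; a list with no bar had 0 calls. The 33 subunits of complex I had 57.6% in G0 and 15.2% in G4/G5, and all 8886 genes 10.6% and 4.19%.

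Other probe sets of the same genes bear on these values. Of 34 further probe sets past the filter, from 20 Nduf genes, 32 had the sign of the chosen probe set in the G0 comparison of cell types, and the 2 exceptions were of Ndufab1 and Ndufs4. In the G4/G5 comparison 27 had the same sign and 7 the opposite one (Ndufa3, Ndufa7, Ndufab1 and Ndufs8), and in the CMP genotype comparison 29 and 5 (Ndufa12, Ndufab1 and Ndufs4). For Ndufs8, the other probe sets gave G0 differences between 0.11 and 0.65, lower than the 0.69 of the chosen one.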

How the data were processed

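The authors deposited MAS5 intensity values of 8 Affymetrix Mouse Genome 430 2.0 arrays, 1 colour; per the series text they were made with MAS version 5.0 at a target signal of 100, and the deposited intensity values had a trimmed mean of 100.001 on each array. Gene symbols came from the platform annotation. The values were used as log2(signal + 10). Genes entered the test when a probe set with their symbol alone had a signal of 50 or more on 2 arrays, and the brightest such probe set was used. All 8 arrays were fitted with 1 mean per group (limma 3.58.1 in R 4.3.3, eBayes with an intensity trend, 4 residual degrees of freedom), and p-values were adjusted by Benjamini-Hochberg over 8886 genes for each of 6 comparisons. On simulated data for GMP against CMP in G0 (8886 genes), 70 of 100 genes changed by 1 on the log2 scale and 95 of 100 changed by 2 were called, with 6 false calls. Of the Nduf differences only that of Ndufaf6 in G0 was above 1. The simulation therefore does not show how often changes of the smaller sizes would be called.

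The number of arrays limits the precision. The series text pairs the pools of the genotypes, and same-numbered pools deviated together (correlation of deviations 0.25 in CMP and 0.14 in GMP); between cell types, which the text does not pair, it was 0.22 in G0 and 0.03 in G4/G5. P-values measure the spread between pools. No pair of arrays held the same values.

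Named genes were the core subunits, per comparison the up to 8 genes with the largest called change and no overlap of groups (or the 3 with the smallest p where under 3 passed), Ndufa4 and the assembly factors. The members and lists were chosen with earlier results of these data known. More promoter motifs were looked at than are given. Core subunits without a single-symbol probe set were not analysed here. Alternatives were another pseudocount, filter, scaling, probe set rule or fit, the replicate block, and leaving out each array.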

Additional observations from a re-analysis of the deposited data

How the results depend on the processing

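No comparison changed the sign of its median under any alternative run for it, except that the median difference of G4/G5 GMP from G0 GMP lay on either side of 0. Leaving out 1 array at a time leaves a group with 1 array, which is assumed to vary like the others. These fits gave 0 to 29 calls and medians of 0.41 to 0.57 for GMP against CMP in G0, and 0 to 13 calls and medians of 0.19 to 0.39 in G4/G5. For G4/G5 against G0 they gave medians of 0.11 to 0.33 in CMP, -0.02 to 0.06 in GMP and 0.07 to 0.17 for the mean of both. For the genotype difference in GMP minus that in CMP the medians were -0.33 to -0.10. The 21 calls in G0 were 12 with no signal filter and 10 with quantile normalization, which gave a median of 0.36. The 5 calls in G4/G5 were 1 with no signal filter, 2 with quantile normalization (1 higher, which is among the 5, and 1 lower), 3 with the mean of a gene's probe sets, 1 with only the arrays compared and 1 without an intensity trend. A filter of 500, chosen after seeing the data, gave 8. With the replicate block within cell type they were 13 and with the replicate block shared 9. Outside fits with fewer arrays, no other count of Nduf genes at an adjusted p of 0.05 changed by over 1.5 times. At an unadjusted p, the replicate block within cell type moved the count for the genotype difference averaged over both cell types from 8 to 15. That for the genotype difference in GMP minus that in CMP moved from 1 to 2. The fit of the GMP arrays alone gave 1 call between genotypes, where 358 of all 8886 genes were called. The causes of these changes were not tested, beyond the fewer arrays or more genes of the fit itself. Probe sets near a signal of 50 are near the lower limit set here, and only Ndufb1 and Ndufaf5 among the 42 genes had a signal under 100 on any array.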

Other observations

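Some Nduf probe sets carry several symbols and were left out of the tests, since their reads cannot be given to 1 gene. The probe set annotated to Ndufs6b and Ndufs6 read 809 and 653 (G0) and 835 and 659 (G4/G5) in the CMP pools, and 1101 and 1084 (G0) and 1110 and 1109 (G4/G5) in the GMP pools, with both GMP groups above both CMP groups. The brighter of the probe sets annotated to Ndufb4 and its copies read 1072 and 1071 (G0) and 1419 and 1101 (G4/G5) in the CMP pools, and 1353 and 1387 (G0) and 1465 and 1418 (G4/G5) in the GMP pools. There pool 1 of G4/G5 CMP was at the level of the GMP arrays. The brighter probe set annotated to Ndufa11b and Ndufa11 read 447 and 567 (G0) and 720 and 637 (G4/G5) in the CMP pools, and 612 and 582 (G0) and 711 and 627 (G4/G5) in the GMP pools, so that only the G0 CMP arrays were below the others.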
